A study of Mus musculus with 6 samples.

Results

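MicroRNAs (miRNAs) are short RNAs of which 1 or both strands of a hairpin precursor, the 5p and the 3p arm, are loaded into a protein complex that represses messenger RNAs. Pairing is led by the seed, the stretch of bases 2 to 8. Mir335 lies inside Mest and Mir675 inside H19, and both hosts are imprinted genes, meaning that mainly the copy from one parent is transcribed. Mest codes for an enzyme-like protein of mesoderm and H19 is a long noncoding RNA, and both are active in embryonic tissues. H19 is abundant in fetal muscle and in differentiating myoblasts.

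All miR-335 and miR-675 rows were taken by name from deposited miRNA tables of C2C12, an established mouse myoblast line. There were 3 such rows, mmu-miR-675-3p and both arms of miR-335 (mmu-miR-335-5p, mmu-miR-335-3p), of 49 miRNAs listed in all, and the mouse prefix mmu is left out from here on. They were compared between 3 libraries labelled wild type (WT) and 3 labelled MSTN-KO, a myostatin knockout made in the same line with CRISPR/Cas9. Myostatin is a secreted factor that restrains muscle growth, and the comparison asks which miRNAs differ between the knockout and the WT cells. Loss of myostatin cannot be told apart here from any other difference between the edited cells and the WT cells. The study's text uses the name C11 for the knockout cells. The strain label, however, reads C11 in all 6 libraries, WT included. Myostatin itself was not measured in the values used, so no value checks the genotypes, and the direction of each difference below rests on the labels alone. Whether the labels of the groups could be exchanged was not settled, and every fall given below would be a rise if they were. Nothing states that replicates were separate cultures, so p-values measure only the spread between these libraries.

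Values are in RPM, the reads of a miRNA per 1000000 reads of the library total. Library totals, obtained from the worth of 1 read in each table, ran from 5502214 to 11823489 reads, and the 49 listed miRNAs held 0.773% to 3.47% of them. Among the 49 listed miRNAs, miR-206-3p, a defining miRNA of skeletal muscle, ranked first in 6 of 6 libraries, with 6143 to 31551 RPM. For 100% of the listed miRNAs the WT and MSTN-KO values did not overlap, in 1 direction or the other, so the list is a selection by group and not an unselected background.

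The mature sequences are shown because the arms are counted by them, with the seed in capitals, 5′ to 3′, from RefSeq on GRCm38.p6.
miR-335-5p: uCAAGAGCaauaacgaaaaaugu
miR-335-3p: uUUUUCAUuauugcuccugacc
miR-675-3p: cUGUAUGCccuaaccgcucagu

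No seed was shared among the 3 miRNAs, and none of the 1678 other mature mouse miRNAs in the RefSeq table carried any of the 3 seeds. That table held 32 of the 49 listed names, so miRNAs under the other listed names may not have been compared. Each mature sequence was found in 1 hairpin. The longest stretch shared with another mature miRNA of that table was 9 bases for either arm of miR-335 and 8 bases for miR-675-3p. Guanine and cytosine made up 30.4% of miR-335-5p, 36.4% of miR-335-3p and 54.5% of miR-675-3p. Both miR-335 arms start with U, and miR-675-3p starts with C.

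The hairpins are shown to place the counted arms, which are in capitals.
Mir335: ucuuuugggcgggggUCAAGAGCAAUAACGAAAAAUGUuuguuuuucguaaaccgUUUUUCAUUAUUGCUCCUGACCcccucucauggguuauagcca
Mir675: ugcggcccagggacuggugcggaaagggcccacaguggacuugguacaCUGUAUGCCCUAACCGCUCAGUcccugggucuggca

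Mir335 occupies 98 bases of chromosome 6 (30741299 to 30741396, plus strand, GRCm38). In GENCODE M21 it lies in an intron of 7 of the 11 Mest transcripts and in an exon of none. That intron runs from 30740825 to 30742140 and is 1316 bases long. The arms of Mir335 take positions 16 to 38 and 56 to 77 of the hairpin, with 17 bases between them. Their longest perfectly complementary stretch is 9 bases, GAGCAAUAA in the 5p arm and UUAUUGCUC in the 3p arm. Mir675 occupies 84 bases of chromosome 7 (142577064 to 142577147, minus strand) and lies within an exon of 3 of the 7 H19 transcripts, 996 bases from the annotated 5′ end of the gene. In another H19 transcript the same bases are intronic. The 5p arm of Mir675 was not analysed here.

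miR-335-3p, the more abundant arm of the Mest hairpin, was high in every library labelled WT and low in every one labelled MSTN-KO. It had 108, 102 and 86.2 RPM in WT replicates 1, 2 and 3, and 9.81, 10.7 and 8.27 RPM in MSTN-KO replicates 1, 2 and 3. The values corresponded to 698, 697 and 1019 reads against 54, 102 and 72 reads. The groups were far apart, since the lowest WT library held 8.07 times the level of the highest MSTN-KO library. The group means were 98.4 ± 11.0 and 9.59 ± 1.22 RPM (SD, n = 3), a 10.3-fold difference. On the log2(RPM + 1) scale miR-335-3p fell by 3.23 (95% interval -3.68 to -2.79, limma adjusted p = 1.03e-06).

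miR-335-5p, the other arm of the same hairpin, was lower in the MSTN-KO group as well, to a level of a few reads. It had 18.5, 12.1 and 15.4 RPM in the WT libraries (120, 83 and 182 reads) and 1.45, 0.733 and 0.459 RPM in the MSTN-KO libraries (8, 7 and 4 reads). No member was at 0 in any library, and the smallest value was close to the 0.344 RPM that 3 reads are worth in MSTN-KO replicate 3. The means of 15.3 ± 3.21 and 0.882 ± 0.514 RPM (SD, n = 3) differed 17.4-fold. The fall on the log2(RPM + 1) scale was smaller than that ratio, with a log2 fold change of -3.13 (95% interval -3.70 to -2.56, limma adjusted p = 4.08e-06), because the added 1 RPM exceeds 2 of the 3 MSTN-KO values. It was -4.08 with 0.1 RPM added and -1.21 with 10 RPM added, so the size of this fall depends on the pseudocount.

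miR-675-3p, the H19 miRNA, fell less and varied more. It had 6.63, 14.9 and 8.71 RPM in the WT libraries (43, 102 and 103 reads) and 5.63, 2.93 and 1.49 RPM in the MSTN-KO libraries (31, 28 and 13 reads). The groups did not overlap, but MSTN-KO replicate 1 came close to WT replicate 1, with a ratio of 1.18 between the lowest WT and the highest MSTN-KO library. The means were 10.1 ± 4.28 and 3.35 ± 2.10 RPM (SD, n = 3), a 3.00-fold difference. Its log2 fold change was -1.39 (95% interval -2.25 to -0.53, limma adjusted p = 0.00562).

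**Figure D1:**
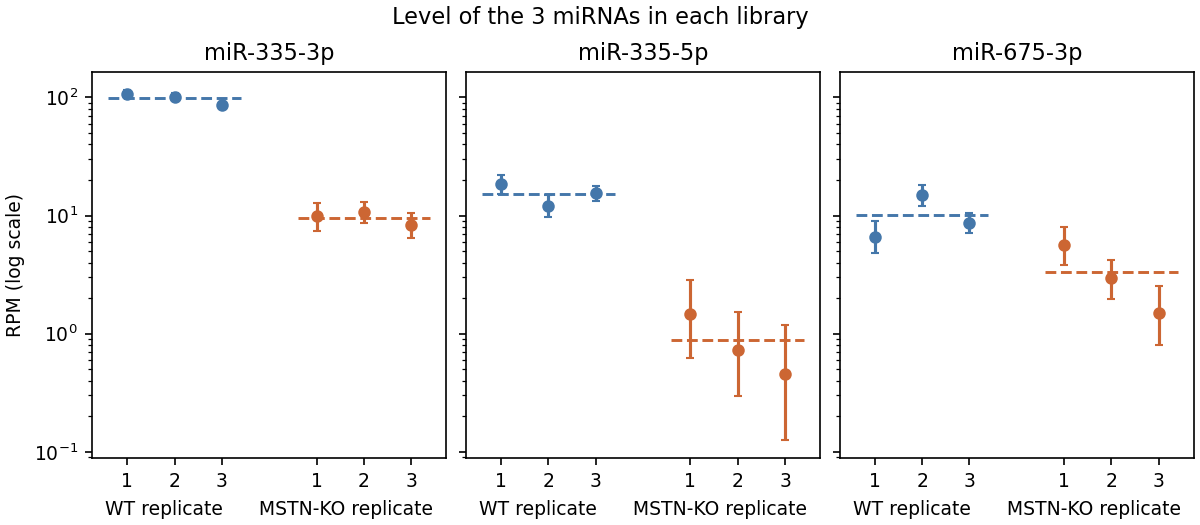
RPM (log axis) of miR-675-3p and of both miR-335 arms in each WT (blue) and MSTN-KO (orange) library; bars are exact 95% Poisson intervals of the reads and cover counting error only, and dashed lines are group means. Both miR-335 arms show a wide gap between the groups, while miR-675-3p of MSTN-KO replicate 1 (5.63 RPM) lies just under WT replicate 1 (6.63 RPM).

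All 3 miRNAs were lower in the MSTN-KO group at a limma adjusted p-value under 0.05, as were 71.4% of the listed miRNAs. All 3 also passed a cut-off on size, a fold change below -1 on the log2 scale at an unadjusted p under 0.05, as 57.1% of the list did. The list held 35 lower and 14 higher calls as deposited, and 10 to 12 lower beside 14 higher calls when libraries were rescaled on the listed miRNAs. These shares come from a list already picked by group, so the calls are no result about the members. The sizes are a description. Ordered from the largest fall, miR-335-3p stood at place 4, miR-335-5p at place 6 and miR-675-3p at place 15 of 49. The median change of the list was -1.07. Relative to it, miR-335-3p lay at -2.16, miR-335-5p at -2.06 and miR-675-3p at -0.32. These distances depend on the pseudocount, most for miR-335-5p. Relative to the refitted median, miR-335-5p lay at -2.87 with 0.1 RPM added and at -0.78 with 10 RPM added. For miR-335-3p these were -2.14 and -2.04, and for miR-675-3p -0.46 and -0.15. With single libraries left out, miR-675-3p ran from -0.76 (without MSTN-KO replicate 1) to 0.010 (without MSTN-KO replicate 3) relative to the median refitted each time.

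**Figure D2:**
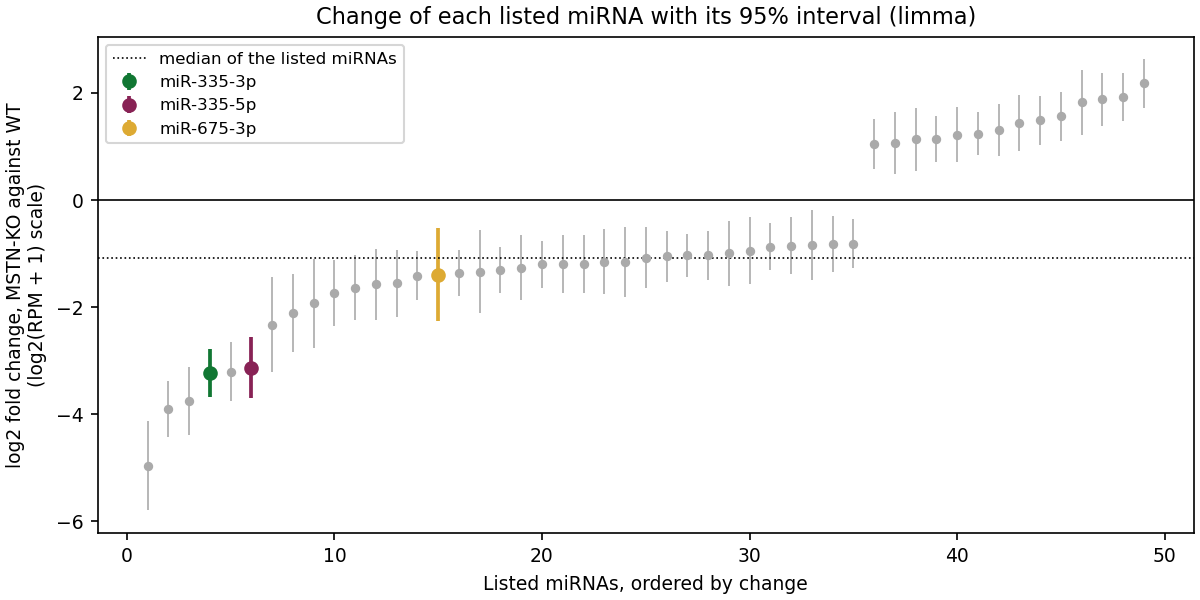
Log2 fold change (log2(RPM + 1) scale, MSTN-KO against WT) of the 49 listed miRNAs in order of change, with 95% intervals from limma; grey points are the other listed miRNAs and the dotted line is the list median of -1.07. The miR-335 arms stand among the largest falls, at -3.23 and -3.13, and miR-675-3p, at -1.39, has an interval that holds the median.

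The order of levels differed between the groups. In the WT group miR-335-3p was highest in each library, and miR-335-5p (12.1 to 18.5 RPM) and miR-675-3p (6.63 to 14.9 RPM) overlapped. In the MSTN-KO group miR-335-3p (8.27 to 10.7 RPM) was followed by miR-675-3p (1.49 to 5.63 RPM), and miR-335-5p (0.459 to 1.45 RPM) was lowest. The latter ranges were separated by a small step, from 1.45 RPM in replicate 1 to 1.49 RPM in replicate 3. Among the 49 listed miRNAs, miR-335-3p held rank 8 to 10 in the WT libraries and rank 21 to 22 in the MSTN-KO libraries. The rank of miR-335-5p went from 18 to 26 in the WT libraries to 36 to 43 in the others. For miR-675-3p the ranks overlapped, with 18 to 28 in the WT and 24 to 37 in the MSTN-KO libraries. RPM counts reads and not molecules, so the order is one of sequenced reads.

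The ratio of the arms shows whether both products of the Mest hairpin changed by the same factor, and it does not depend on the library total. The 3p arm had 5.82, 8.40 and 5.60 times the reads of the 5p arm in WT replicates 1, 2 and 3. In MSTN-KO replicates 1, 2 and 3 the ratio was 6.75, 14.6 and 18.0. WT replicate 2 had a higher ratio than MSTN-KO replicate 1, so the groups overlapped. The mean log2 ratio was 2.70 ± 0.32 for WT and 3.60 ± 0.74 for MSTN-KO (SD, n = 3). The difference of 0.90 had an exact permutation p of 0.2 (two-sided), and 3 against 3 libraries cannot go below 0.1. With 1 RPM added to each arm the difference changed sign, to -0.099, and 1 RPM exceeds 2 of the 3 MSTN-KO values of miR-335-5p. With less than 1 read added to each arm in its place, the difference was 0.79 (exact two-sided permutation p = 0.2).

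As a share of both arms, miR-335-5p took 14.7% of the reads (95% Clopper-Pearson interval 12.3 to 17.3) in WT replicate 1. It took 10.6% (8.56 to 13.0) in WT replicate 2 and 15.2% (13.2 to 17.3) in WT replicate 3. The MSTN-KO shares rested on 62, 109 and 76 reads and had wider intervals. They were 12.9% (5.74 to 23.9), 6.42% (2.62 to 12.8) and 5.26% (1.45 to 12.9) in replicates 1, 2 and 3. Each MSTN-KO interval overlapped that of WT replicate 2, which had the lowest share of its group. The mean share was 13.5% ± 2.48 against 8.20% ± 4.12 (SD, n = 3, exact two-sided permutation p = 0.2).

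The change of the Mest miRNA was then set against that of the H19 miRNA within each library. The log2(RPM + 1) value of miR-335-3p exceeded that of miR-675-3p by 3.83, 2.69 and 3.17 in WT replicates 1, 2 and 3, and by 0.70, 1.57 and 1.89 in MSTN-KO replicates 1, 2 and 3. The groups did not overlap. The means were 3.23 ± 0.57 and 1.39 ± 0.62 (SD, n = 3), a difference of -1.84 with an exact two-sided permutation p of 0.1, the smallest value this design allows. As plain ratios of RPM, miR-335-3p had 6.83 to 16.2 times the level of miR-675-3p in the WT libraries and 1.74 to 5.54 times in the MSTN-KO libraries.

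On the log2(RPM + 1) scale miR-335-5p gave a difference of -1.74 against miR-675-3p (exact two-sided permutation p = 0.1). It was the higher of the pair in 2 WT libraries, and the lower in WT replicate 2, with a log2(RPM + 1) difference of -0.28. In the MSTN-KO libraries the difference was -1.43, -1.18 and -0.77. These differences depend on the pseudocount, since the added 1 RPM exceeds the MSTN-KO mean of miR-335-5p (0.882 RPM). As plain log2 ratios of RPM, miR-335-5p over miR-675-3p, they were 1.48, -0.30 and 0.82 in WT replicates 1, 2 and 3. In MSTN-KO replicates 1, 2 and 3 the plain log2 ratios were -1.95, -2.00 and -1.70. The comparisons of both miR-335 arms share the miR-675-3p values.

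**Figure D3:**
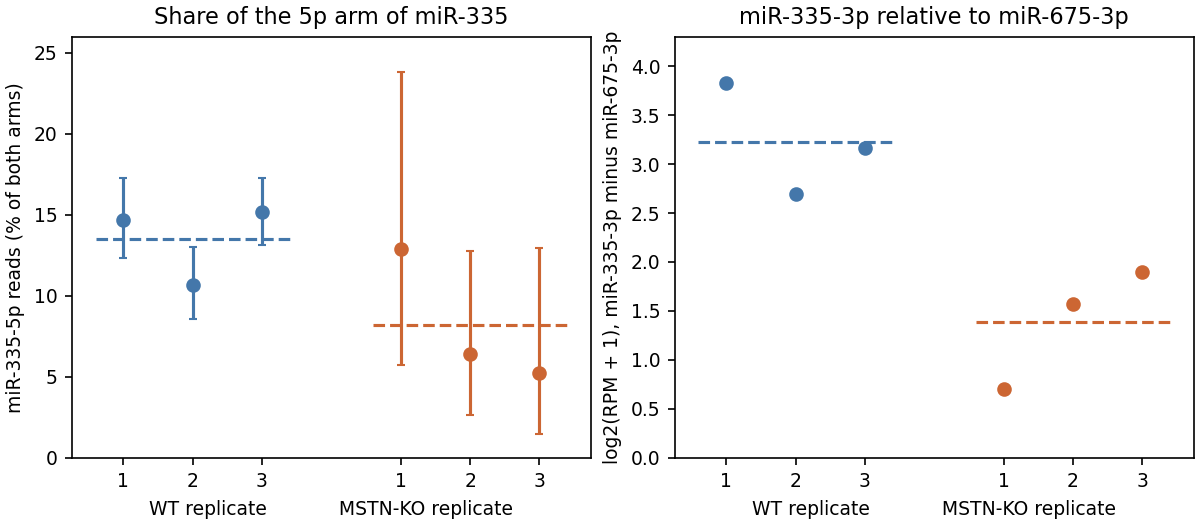
Left, share of miR-335-5p in the reads of both miR-335 arms (%) with 95% Clopper-Pearson intervals, which cover counting error only; right, log2(RPM + 1) of miR-335-3p minus that of miR-675-3p; each point is a library, WT in blue and MSTN-KO in orange, and dashed lines are group means. The 5p shares overlap between the groups, whereas the differences to miR-675-3p lie at 2.69 to 3.83 in the WT and at 0.70 to 1.89 in the MSTN-KO group.

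The members differed in how far their replicates scattered. The coefficient of variation (SD over mean) of miR-335-3p was 11.2% among the WT and 12.8% among the MSTN-KO libraries. Counting error alone, taken as Poisson error around the pooled rate of the group, would give 3.66% and 11.8%, so that the 3 MSTN-KO libraries scattered hardly more than counting does. For miR-335-5p the coefficient was 20.9% in the WT and 58.2% in the MSTN-KO group, beside 9.15% and 40.9% from counting. miR-675-3p had 42.5% and 62.7%, beside 11.4% and 21.0% from counting. Its spread was thus 3.73 and 2.98 times what counting gives, and its highest WT library, replicate 2, held 2.24 times the level of the lowest. Among listed miRNAs above 0 in every library of the group, the median coefficient was 19.5% in the WT and 21.6% in the MSTN-KO group. miR-675-3p had the third highest coefficient of 47 in the WT group and was at place 6 of 45 in the MSTN-KO group.

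**Figure D4:**
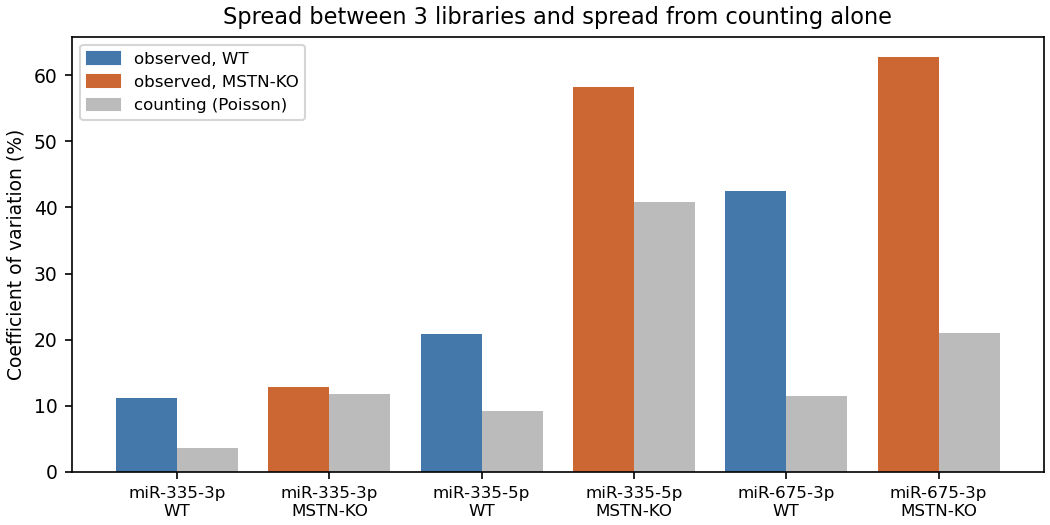
Coefficient of variation (%) over the 3 libraries of each group (blue WT, orange MSTN-KO) beside the value that Poisson counting alone would give (grey). For miR-335-3p in the MSTN-KO group both are close (12.8% and 11.8%), and miR-675-3p exceeds counting in both groups (42.5% against 11.4% and 62.7% against 21.0%).

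The fall of miR-675-3p also depended on the denominator. The listed miRNAs as a sum were lower in the MSTN-KO libraries (7727 to 12590 RPM) than in the WT libraries (21053 to 34748 RPM). Of that sum, miR-335-3p took 0.292% to 0.409% in the WT libraries and 0.0801% to 0.127% in the MSTN-KO libraries, with no overlap. miR-675-3p took 0.0244% to 0.0428% against 0.0145% to 0.0729%, so its shares overlapped. When libraries were rescaled on the listed miRNAs, the log2 fold change of miR-675-3p was -0.45 by median of ratios, -0.19 by the listed total and -0.69 by quantile normalization. None of these passed (limma adjusted p = 0.410, 0.741 and 0.283). Both arms of miR-335 stayed below a limma adjusted p of 0.05 in the same rescalings, with log2 fold changes from -2.55 to -1.86 for miR-335-3p and from -2.32 to -2.09 for miR-335-5p. The rescalings raised the median of the list by 0.92 to 1.23. They rest on a list picked by group, with more lower than higher calls, so they cannot tell which denominator is right. Most of the listed total was miR-206-3p, with means of 24841 RPM in the WT and 8479 RPM in the MSTN-KO group. Shares of that total are thus mainly relative to miR-206-3p, whose own log2 fold change was -1.55. When p-values from the same limma fit were adjusted over 1696 mature names, each unlisted one given the value 1, miR-675-3p did not pass (limma adjusted p = 0.195), while miR-335-3p (3.57e-05) and miR-335-5p (0.000141) did. The fit itself saw only the listed miRNAs, so this adjustment does not undo their selection by group.

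**Figure D5:**
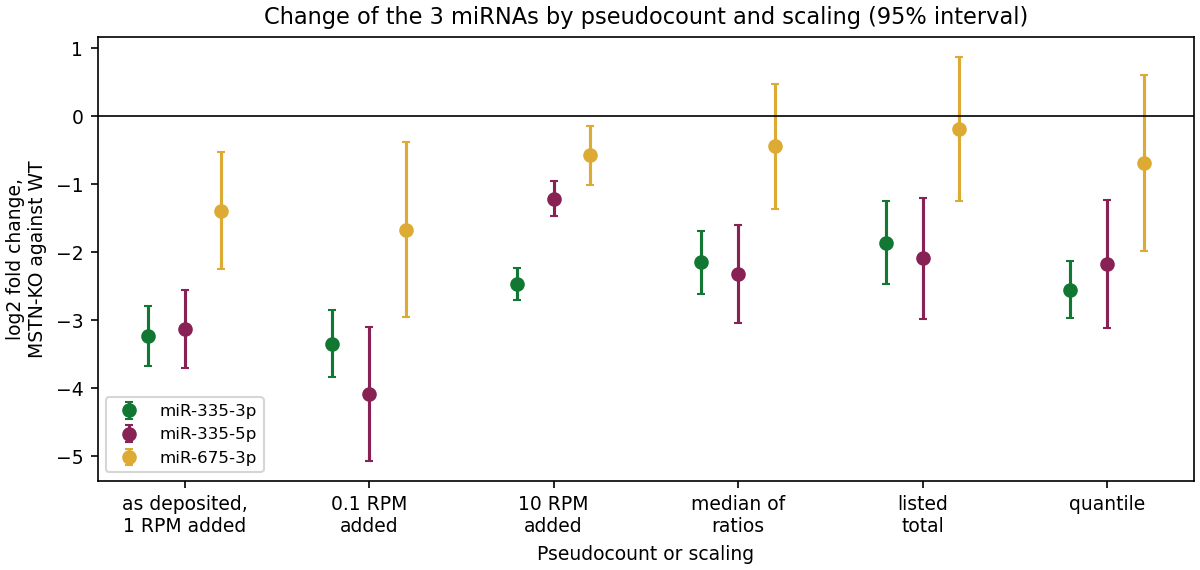
Log2 fold change (MSTN-KO against WT) of the 3 miRNAs with 95% limma intervals, for 3 pseudocounts on the values as deposited and for 3 rescalings on the listed miRNAs. miR-675-3p (yellow) lies at -1.39 as deposited and at -0.45, -0.19 and -0.69 under the rescalings, where its intervals cross 0, and both miR-335 arms (3p green, 5p purple) lie below 0 in all 6 settings shown.

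Likeness of profile was measured as the root-mean-square difference of log2(RPM + 1) over the 6 libraries, after each miRNA was centred on its own mean. The nearest of the 48 other miRNAs to miR-335-3p was its partner arm miR-335-5p, at 0.27 log2 units, and the same pair was nearest the other way round. miR-301b-5p (0.38) and miR-148a-3p (0.41) came next for miR-335-3p, with a median of 1.11 over all others. They also came next for miR-335-5p, at 0.50 and 0.56. miR-675-3p was nearest to miR-130b-3p (0.36), miR-148a-5p (0.40) and miR-669e-5p (0.42), with a median of 0.76. The arms of miR-335 stood at places 29 and 30 of the 48 from miR-675-3p. This distance includes the change between the groups. Log2 fold changes were -3.23 for miR-335-3p, -3.13 for miR-335-5p, -3.21 for miR-301b-5p and -3.91 for miR-148a-3p. On a list picked by group, likeness is therefore no separate evidence that miRNAs vary together. miR-301b-5p, miR-148a-5p and miR-130b-3p averaged 0.322, 0.194 and 0.617 RPM in the MSTN-KO group, below the added 1 RPM. The member miR-335-5p, at 0.882 RPM, was below it too. Log2 fold changes of miR-335-3p and miR-335-5p were -3.35 and -4.08 with 0.1 RPM added, and -2.47 and -1.21 with 10 RPM added. Distances were not computed with other pseudocounts.

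Other miRNAs of imprinted genes were looked for by name, including those of the Dlk1-Dio3 region, the Sfmbt2 intron, Igf2, the Gnas region and the Rasgrf1 region. Rows were found for the miR-467 and miR-669 names, which belong to a cluster of near-copies in an intron of the imprinted gene Sfmbt2 and to similar hairpins elsewhere. There were 8 such rows, of which 8 were lower in the MSTN-KO group at a limma adjusted p-value under 0.05, beside 71.4% of the whole list, which was picked by group. Their median log2 fold change was -1.20, beside -1.07 over the list, with a range from -1.58 for miR-467c-5p to -0.82 for miR-669d-5p. The calls of this group rest on the scaling. After median of ratios 8 of the 8 were below 0, and after rescaling on the listed total or quantile normalization 5 were, with 0, 0 and 1 passing in turn (limma; 1, 0 and 1 at an unadjusted p under 0.05). On the values as deposited, miR-675-3p at -1.39 lay within the range of the group and both arms of miR-335 lay below that range. miR-467a-5p and miR-467b-5p carried identical values, so their reads cannot be told apart.

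Muscle miRNAs were lower too on the values as deposited. The names miR-1a, miR-133a, miR-133b, miR-206, miR-486a and miR-499 gave 10 rows, and no row carried the names miR-208a, miR-208b or miR-486b. All 10 were lower in the MSTN-KO group at a limma adjusted p-value under 0.05, again beside 71.4% of the list, with log2 fold changes from -4.96 for miR-1a-3p to -1.05 for miR-206-5p and a median of -1.45. Their summed level was 19023 to 32628 RPM in the WT and 6334 to 11095 RPM in the MSTN-KO libraries, most of it miR-206-3p. After median of ratios 9 of the 10 were below 0 and 4 passed, after quantile normalization 9 were below 0 and 3 passed, and on the listed total 5 were below 0 and 4 passed (limma). miR-133a-5p was at 0 in 2 of the MSTN-KO libraries. The part of the muscle miRNAs in the falls of miR-335 and miR-675-3p was not tested. In such bulk libraries, fewer cells with a miRNA and less of it per cell cannot be told apart.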

How the data were processed

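Small RNA of C2C12 myoblasts was sequenced on an Illumina HiSeq instrument from 3 WT and 3 MSTN-KO samples, grouped by title. As deposited, the tables hold RPM, with 1 value per miRNA and library. The submitters' processing notes name Bowtie 0.12.2 and build mm8. What counted the reads, which catalogue named the miRNAs and which reads make up the total are not given in the sources used here. All values above 0 were whole multiples (within 0.01) of 1 step per library, taken as the worth of 1 read and used for depth, floors (3 reads, 0.254 to 0.545 RPM) and 95% intervals. Without molecular identifiers these cover counting error only. No count model was run.

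log2(RPM + 1) was fitted for all 49 miRNAs (each reached 1 RPM in at least 1 library) with limma 3.58.1 in R 4.3.3 (lmFit, eBayes, two-sided, no covariate, Benjamini-Hochberg over 49). The fit was tested on simulated data. Those miRNAs were not picked by group and most were unchanged, so the test gives no error rate for this list. Ratios within libraries were compared by exact permutation (scipy 1.17.1). Named miRNAs are the members, the 3 nearest profiles of each, and list members given as extremes, by absence or for zero or identical values. Members and lists were chosen with earlier results of these data known. Sequences and coordinates are on GRCm38 and none were taken from the files. The alternatives were other pseudocounts, filters, scalings, a variance trend, a replicate block, a wider adjustment and each library left out.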

Additional observations from a re-analysis of the deposited data

How the results depend on the processing

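Leaving out each library in turn kept the 3 members at a limma adjusted p-value under 0.05 (3 in each fit). In those fits 34 to 35 listed miRNAs passed as lower and 14 as higher, so this is no result about the members. Log2 fold changes then ran from -3.32 to -3.14 for miR-335-3p, from -3.34 to -2.97 for miR-335-5p and from -1.75 to -1.05 for miR-675-3p. The arm ratio difference ran from 0.61 to 1.32 and the difference between hosts from -2.11 to -1.50. Same-numbered libraries deviated from their group means with correlations of 0.0047, 0.22 and 0.056 over the listed miRNAs. With 3 libraries per group, these cannot settle whether the numbers pair the libraries. With the replicate block 3 members passed, with -3.23, -3.13 and -1.39 (largest limma adjusted p of 0.0165), among 35 lower and 14 higher calls on the list. The arm ratio (0.90) and host difference (-1.84) each had an exact sign-flip p of 0.25 with that block, the smallest the test allows. Not every library correlated best with its own number.

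The arm ratio difference reversed with 1 RPM added (-0.099, exact permutation p = 0.8). A mean of at least 10 RPM left 1 member, since miR-335-5p and miR-675-3p fell below it. miR-675-3p lost its call under median of ratios (-0.45), the listed total (-0.19), quantile normalization (-0.69) and the wider adjustment (-1.39), which left 2 members called. Beside 35 listed miRNAs lower at an adjusted p under 0.05, the wider adjustment left 22, median of ratios and quantile normalization 12 each, the listed total 10 and the 10 RPM filter 14 (with 8 higher in place of 14). Past the fold cut-off, 28 became 12 with 10 RPM added, 13 with the filter, and 11, 10 and 9 under the scalings. The cause was not tested, beyond the fewer miRNAs tested under the filter. The other 42 alternative values of the members kept direction and side, and the other 17 of the ratios kept their direction, with no p of 0.05 within reach. MSTN-KO reads of miR-335-5p, 4 to 8 per library, limit the arm ratio.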
